A study of Mus musculus with 6 samples.

Results

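The genes described here are those that encode the proteins of the cytosolic ribosome. They were taken from the deposited liver table by name: symbols that start with Rpl or Rps followed by a digit, or with Rplp, and the symbol Rpsa, without the Rps6k kinases and without the 30 symbols that contain -ps. The rule found 64 genes among the 3542 of the table, 37 with names of the large subunit and 27 with names of the small subunit. Of these, 58 belong to a standard list of 77 ribosomal protein genes, and 6 are paralogs or retrocopies (Rpl22l1, Rps27l, Rpl37rt, Rps27rt, Rpl6l and Rpl32l). The other 19 genes of the standard list, among them Rplp0, Rplp2 and Rps6, were not found in the table. The table holds only genes that passed the authors' cut for a difference between the genotypes. Nothing can thus be said here about how these 19 genes behaved.

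The libraries were mRNA-seq of bulk liver from Mul1(+/+) mice and from mice with a whole-body inactivation of Mul1, Mul1(-/-), all fed a high-fat diet (HFD), for 16 weeks, with 3 libraries per genotype. MUL1 is an E3 ubiquitin ligase of the mitochondrial outer membrane. The labels give no age or sex for the libraries, and they call the cells hepatocytes although pieces of whole liver tissue were used. None of the 6 hepatocyte markers looked for was in the table, which holds only genes selected on the genotype contrast. This label was therefore not checked. In bulk tissue, fewer cells of a type and less RNA per cell cannot be told apart.

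A ribosome consists of a small subunit, which binds mRNA and reads the codons, and a large subunit, which forms the peptide bond and from which the acidic stalk proteins reach out to recruit elongation factors. The subunits are assembled in the nucleolus from ribosomal RNA and one copy of nearly every ribosomal protein. Most ribosomal protein mRNAs are short and abundant, and they begin with a C followed by a run of pyrimidines, the 5′ terminal oligopyrimidine (TOP) motif, through which mTORC1 and LARP1 control their translation.

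That start is shown here for the 5 genes with the largest and the 5 with the smallest log2 fold change between the genotypes among genes whose start was used here. The letters are from RefSeq (GRCm38.p6) and run 5′ to 3′ on the strand of the gene from 10 bases before to 20 bases after the annotated transcript start, the first one listed for the gene. Capitals mark the part of the longest run of C or T that lies within this window. The first 5 lines are genes with a large log2 fold change, and the last 5 are genes with a small one.
Rpl22l1: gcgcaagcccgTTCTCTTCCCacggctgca
Rps12: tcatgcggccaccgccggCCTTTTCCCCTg
Rpl12: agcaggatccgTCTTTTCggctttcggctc
Rps18: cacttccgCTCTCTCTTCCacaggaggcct
Rpl35: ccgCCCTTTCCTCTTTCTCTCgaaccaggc
Rpl15: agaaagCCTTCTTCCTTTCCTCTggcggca
Rpl10a: gCCCCCCCagcggccgcaaactgcagcgcc
Rpl7a: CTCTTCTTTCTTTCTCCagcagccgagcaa
Rpl5: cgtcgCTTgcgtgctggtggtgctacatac
Rpl9: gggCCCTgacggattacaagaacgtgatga

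The run was 10 bases in Rpl22l1, 11 in Rps12, 7 in Rpl12, 11 in Rps18 and 18 in Rpl35. It was 17 bases in Rpl15, 7 in Rpl10a, 21 in Rpl7a, 3 in Rpl5 and 4 in Rpl9, so that long runs stood in genes of both kinds. The first 5 windows are chr3:28805498-28805527 on the plus strand for Rpl22l1, chr10:23787190-23787219 on the minus strand for Rps12, chr2:32961702-32961731 on the plus strand for Rpl12, chr17:33955646-33955675 on the minus strand for Rps18 and chr2:39005112-39005141 on the minus strand for Rpl35. The last 5 are chr14:18270967-18270996 on the minus strand for Rpl15, chr17:28328461-28328490 on the plus strand for Rpl10a, chr2:26910797-26910826 on the plus strand for Rpl7a, chr5:107900518-107900547 on the plus strand for Rpl5 and chr5:65391412-65391441 on the minus strand for Rpl9. These starts are those of the RefSeq transcripts and can lie inside the GENCODE gene bounds. Promoter entries were matched for 49 of the 64 genes, which have 60 windows. A run of at least 8 bases of C or T touched the stretch shown in 27 of the 60 windows (45%), against 16.9% of all 32851 windows of the promoter table.

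The same windows, from 250 bases before to 50 bases after the start, were searched for short motifs. The letters CCGGAAG, which match the core of ETS family sites, were found on either strand in 21 of 60 windows (35.0%, against 8.86% of all windows). AAGATGG, part of the YY1 motif, was found in 16.7% on either strand (6.34% of all windows). The E-box letters CACGTG, a sequence bound by MYC, stood in 11.7% (7.15% of all windows). TATAAA stood in 10% (13.6% of all windows). CTCTTT and CTTTTC, which can overlap each other in a pyrimidine run, were found on the gene strand in 33.3% and 18.3% (12.1% and 11.4% of all windows). These counts describe letters and not bound sites.

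The library values are normalized read counts, and 3 values of a genotype are always given in the order of replicates 1, 2 and 3. Between libraries 1 read was worth 0.817 to 1.46 normalized counts, and the table's genes together had between 11932163 and 15385822 reads per library, which is a part of each library's depth. Each gene of the standard list had at least 2071 reads in each library. All 3542 genes met an adjusted p-value of 0.05 or less and an absolute log2 fold change of 1 or more in the authors' own comparison of the same libraries. The table is thus a selection on this contrast, and neither a count nor a median over the ribosomal protein genes is independent evidence. Mul1, the targeted gene, checks the labels. It had 3172, 3232 and 3423 normalized counts in the Mul1(+/+) libraries and 1037, 965 and 1753 in the Mul1(-/-) libraries, so that the libraries of the genotypes did not overlap. Its log2 fold change was -1.44 (SE 0.40), with an adjusted p of 0.0126 in limma.

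All 64 ribosomal protein genes were higher in Mul1(-/-) HFD-liver. In limma on log2(normalized count + 1), with p-values adjusted over the whole table by the Benjamini-Hochberg method, 47 of the 64 (73.4%) passed an adjusted p under 0.01 with a log2 fold change above 1. The same call was made for 16.7% of all genes of the table in the direction of higher expression and for 7.43% in the direction of lower expression. Of the 17 that did not pass, 16 had an adjusted p between 0.01 and 0.05, and Rpl9 had one above 0.05. The median log2 fold change was 1.94 (range 0.98 to 3.12), against 1.12 over all 3542 genes and 1.66 over the 1948 other genes that were higher in Mul1(-/-). As ratios of group means the differences ran from 2.04-fold to 9.80-fold, with a median of 3.82-fold. The lowest Mul1(-/-) library stood above the highest Mul1(+/+) library for 63 of the 64 genes, against 49.3% of all genes of the table. Genes that were lower in Mul1(-/-) cannot meet this or the call for higher expression. Among the 1948 other higher genes, 86.4% were separated in this way and 27.9% passed the threshold.

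The number of genes past the threshold rested on single libraries. It was 0 without Mul1(+/+) replicate 1, without Mul1(+/+) replicate 2, without Mul1(+/+) replicate 3 and without Mul1(-/-) replicate 2, in fits that called 0.254% to 0.875% of the whole table higher. It was 31 without Mul1(-/-) replicate 1, where 12.4% of the table was called higher, and 57 without Mul1(-/-) replicate 3, where 45.03% was. In those 6 fits between 50 and 63 of the genes had an adjusted p under 0.05, and all 64 stayed higher in Mul1(-/-). The authors had cut the table at an adjusted p of 0.05 on the same libraries. The share of all genes under 0.05 in these fits was not counted, so these numbers are not particular to the ribosomal protein genes. Rescaling of the libraries moved the whole table: by the median ratio the median over all genes shifted by -0.66 on the log2 scale and 22 ribosomal protein genes passed (6.66% of the table), by the table total it shifted by -0.30 and 30 passed (17.5% of the table). All 64 were higher under these scalings too.

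**Figure D1:**
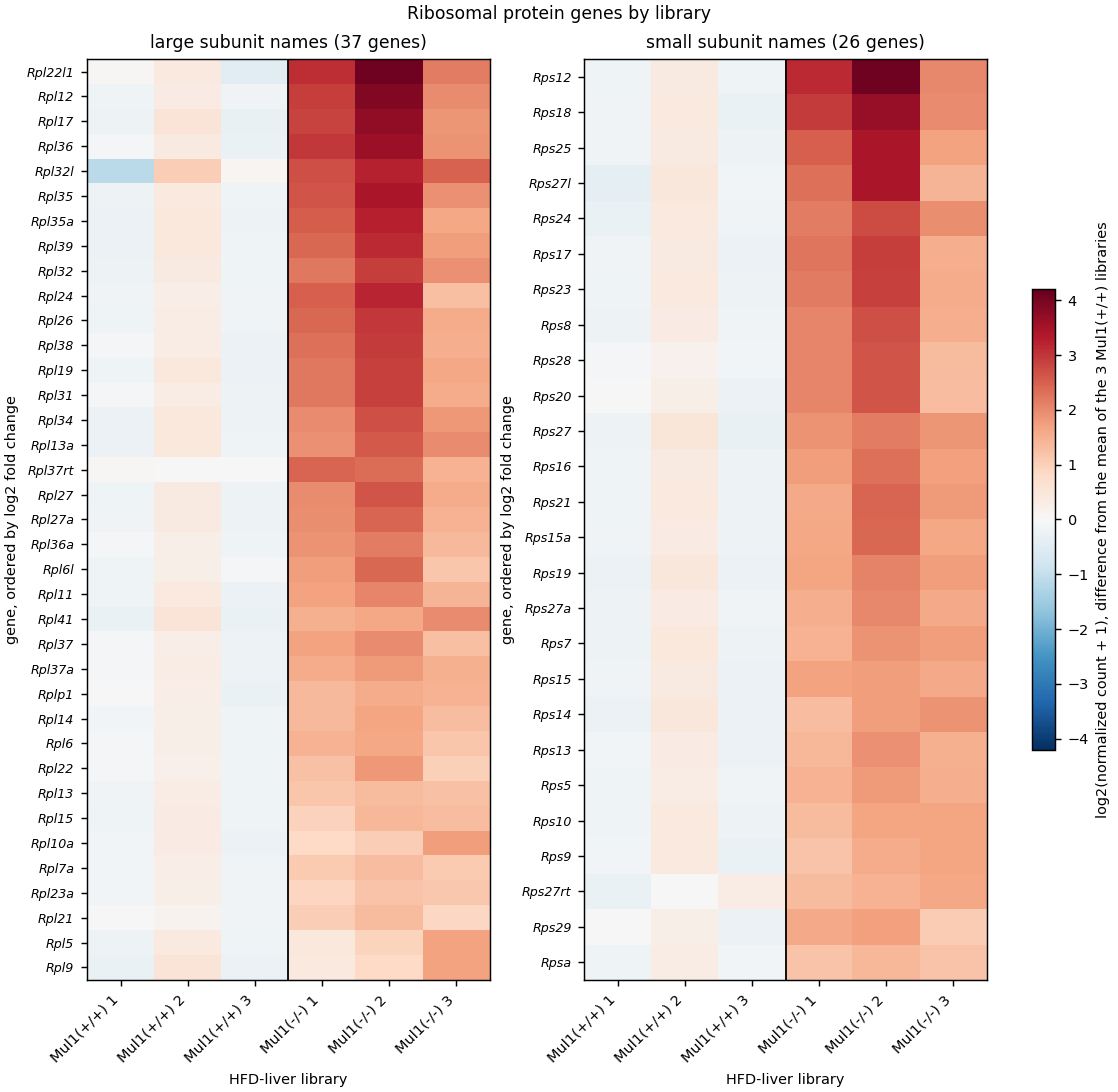
Heat map of 63 of the 64 ribosomal protein genes (rows, by subunit name and in order of log2 fold change) in the 6 HFD-liver libraries (columns); colour is log2(normalized count + 1) as a difference from the mean of the 3 Mul1(+/+) libraries. The Mul1(-/-) columns are above the Mul1(+/+) columns nearly throughout, Mul1(-/-) replicate 2 is the darkest for most rows, and the rows at the foot of the large subunit panel are darkest in Mul1(-/-) replicate 3.

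Summed over the 64 genes, the normalized counts were 361174, 523977 and 350960 in the Mul1(+/+) libraries. The sums in the Mul1(-/-) libraries were 1.48e+06, 2.24e+06 and 1.23e+06, and the ratio of the group means was 4.0. Ribosomal protein reads made up 2.79%, 4.74% and 3.06% of the reads on the table in Mul1(+/+) and 7.69%, 14.6% and 11.7% in Mul1(-/-). Mul1(-/-) replicate 1 had a lower share than replicate 3 but a higher sum. The reads on the table include the mitochondrial genome, with 9.48e+06, 3.49e+06 and 1.61e+06 normalized counts in the Mul1(-/-) libraries. Over all genes of the table these libraries had 1.92e+07, 1.53e+07 and 1.05e+07. Among the 100 genes of the table with the highest mean normalized count, 36 were ribosomal protein genes in Mul1(-/-) HFD-liver and 0 in Mul1(+/+) HFD-liver. This ranking leaves out all genes that were not selected on the contrast, and the 64 genes were all higher in Mul1(-/-). It is thus not a rank in the whole liver.

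The libraries within a genotype did not stand at the same level. The median over the 64 genes of the log2 difference from the Mul1(+/+) mean was -0.17, 0.37 and -0.21 in the Mul1(+/+) libraries. It was 1.82, 2.38 and 1.60 in the Mul1(-/-) libraries. Mul1(+/+) replicate 2 was the highest of its group for 62 genes (96.9%, against 37.6% of all genes of the table), and the exceptions were the retrocopies Rpl37rt and Rps27rt. Mul1(-/-) replicate 2 was the highest of its group for 56 genes (87.5%, against 32.7% of all genes), replicate 3 for 7 and replicate 1 for 1. This order was not particular to these genes. Among the 1948 other higher genes, replicate 2 was the highest for 56.8% in Mul1(+/+) and 52.0% in Mul1(-/-). Among the 18 mitochondrial ribosomal protein genes these shares were 100% and 88.9%. The spread over genes was widest in Mul1(-/-) replicate 2, where single genes were 0.83 to 4.09 above the Mul1(+/+) mean on the log2 scale, against 0.42 to 3.15 in replicate 1 and 0.87 to 2.47 in replicate 3.

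Among the large subunit names, 25 of 37 passed the threshold, and their median log2 fold change was 1.95 (range 0.98 to 3.12). Rpl12, whose protein sits at the base of the stalk, had 4983, 7047 and 5006 normalized counts in the Mul1(+/+) libraries and 41711, 82296 and 22270 in the Mul1(-/-) libraries. Its lowest Mul1(-/-) library, replicate 3, was above all Mul1(+/+) libraries, and its log2 fold change was 2.92 (adjusted p = 0.00591, limma). Rpl17, a protein beside the exit tunnel of the nascent peptide, had 7868, 13107 and 7257 normalized counts in Mul1(+/+) and 65095, 119874 and 33082 in Mul1(-/-). The groups of Rpl17 did not overlap, although its Mul1(-/-) libraries lay far from each other, and the log2 fold change was 2.81 (adjusted p = 0.00690, limma). Rpl36, with a log2 fold change of 2.81, Rpl35, with one of 2.66, and Rpl39, with one of 2.43, also rose.

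Rpl35a, another large subunit protein, had 6090, 9916 and 6266 normalized counts in the Mul1(+/+) libraries and 42330, 69610 and 22107 in the Mul1(-/-) libraries. Its genotypes did not overlap, and the log2 fold change was 2.48 (adjusted p = 0.00692, limma). Rpl41 encodes the shortest of these proteins, a basic peptide of 25 residues that lies between the subunits. Its normalized counts were 6352, 11209 and 6331 in Mul1(+/+) and 21362, 23503 and 30545 in Mul1(-/-), with a log2 fold change of 1.70 (adjusted p = 0.00942, limma). Here Mul1(-/-) replicate 3 was the highest library. Per kilobase of coding length, Rpl41 had the highest level of the 64 genes, with a mean of 220669 normalized counts per coding kilobase over the 6 libraries, followed by Rps18 with 88320 and Rpl35a with 78950. The order depended on the genotype: by the Mul1(+/+) mean alone, Rpl41 (106183) was followed by Rplp1 (29508) and Rps14 (28978), with Rps18 at 19775. The counts are per gene and may hold reads outside the coding sequence, which this length leaves out. This can raise the level of a gene with a coding length as short as the 75 nucleotides of Rpl41. Without division by length, the mean of Rpl41 was below that of Rps18 in Mul1(+/+) (7964 against 9017) and in Mul1(-/-) (25137 against 71531).

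Rplp1 encodes the P1 protein of the stalk, which binds elongation factors. It had 9969, 12143 and 8163 normalized counts in the Mul1(+/+) libraries and 25454, 29087 and 27194 in the Mul1(-/-) libraries. All Mul1(-/-) libraries of Rplp1 were above all Mul1(+/+) libraries and lay close to each other. The log2 fold change was 1.45, and its adjusted p of 0.0111 (limma) did not pass the threshold.

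Rpl5 and Rpl11 bind 5S ribosomal RNA together, and outside the ribosome this particle inhibits the ubiquitin ligase MDM2 and so stabilizes p53. Normalized counts of Rpl11 were 9266, 13812 and 8823 in the Mul1(+/+) libraries and 33274, 43147 and 28256 in the Mul1(-/-) libraries. Rpl11 rose, with a log2 fold change of 1.72 (adjusted p = 0.00855, limma). Those of Rpl5 were 10322, 16151 and 10529 in Mul1(+/+) and 16451, 23150 and 38599 in Mul1(-/-). The libraries of Rpl5 only just failed to overlap, since Mul1(-/-) replicate 1 lay close to Mul1(+/+) replicate 2, and Mul1(-/-) replicate 3 stood highest. Its log2 fold change of 1.02 (95% interval 0.03 to 2.01) had an adjusted p of 0.0465 in limma.

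The 5 smallest log2 fold changes were all in large subunit genes. Rpl9 was the one gene whose genotypes overlapped: it had 7228, 12571 and 7260 normalized counts in the Mul1(+/+) libraries and 11624, 15509 and 27973 in the Mul1(-/-) libraries. Mul1(-/-) replicate 1 was below Mul1(+/+) replicate 2. The log2 fold change of Rpl9 was 0.98 (95% interval -0.05 to 2.0, adjusted p = 0.0615 in limma). Rpl21 had 7412, 8317 and 6786 normalized counts in Mul1(+/+) and 15268, 18712 and 13692 in Mul1(-/-), with a log2 fold change of 1.07 (adjusted p = 0.0228, limma).

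Rpl23a, a protein at the exit tunnel where the signal recognition particle docks, had 5155, 6575 and 5021 normalized counts in the Mul1(+/+) libraries and 10336, 12826 and 12197 in the Mul1(-/-) libraries. Its log2 fold change was 1.08 (adjusted p = 0.0224, limma). Rpl7a had 13069, 17255 and 12891 normalized counts in Mul1(+/+) and 30804, 34775 and 30319 in Mul1(-/-), with a log2 fold change of 1.16 (adjusted p = 0.0186, limma). For these genes the genotypes did not overlap, and the Mul1(-/-) libraries lay closer together than those of Rpl12 or Rpl17.

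**Figure D2:**
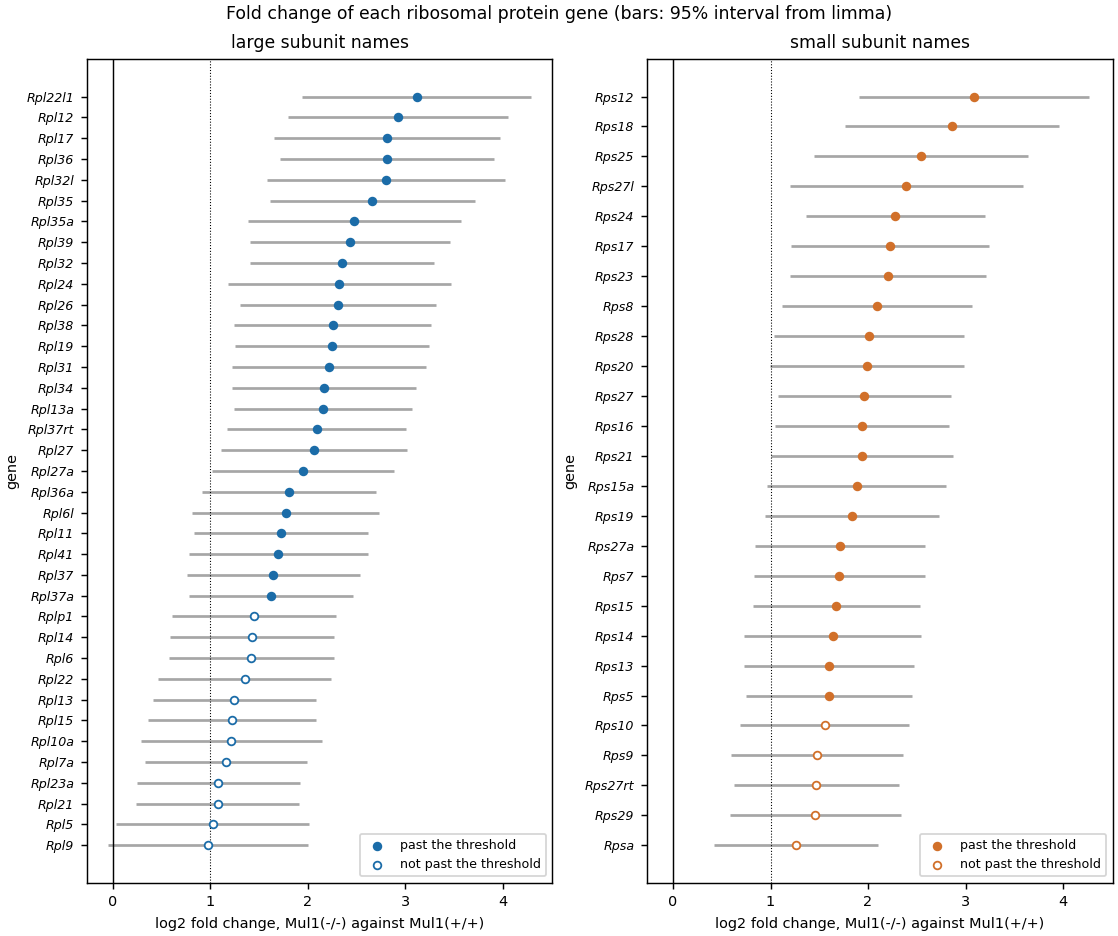
Log2 fold change of 63 of the 64 genes, Mul1(-/-) against Mul1(+/+) (x axis), with bars for the 95% interval from limma, large subunit names on the left and small subunit names on the right. Filled points are the 46 drawn genes past the threshold (adjusted p under 0.01 and log2 fold change above 1, the dotted line), open points the other 17; the bar of Rpl9 alone reaches below 0.

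Among the small subunit names, 22 of 27 passed the threshold, with a median log2 fold change of 1.94 (range 1.26 to 3.09). Rps12 (chromosome 10, 23785183 to 23787275 on GRCm38) had 4588, 6761 and 4573 normalized counts in the Mul1(+/+) libraries and 46302, 88425 and 21283 in the Mul1(-/-) libraries. The mean in Mul1(-/-), 52003 ± 33932 (SD, n = 3), was 9.80-fold that in Mul1(+/+), 5308 ± 1259 (SD, n = 3). The log2 fold change of Rps12 was 3.09 (SE 0.53, adjusted p = 0.00591 in limma), and even its lowest Mul1(-/-) library, replicate 3, was above every Mul1(+/+) library.

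Rps18, a protein of the head of the small subunit, had 7896, 11830.5 and 7325 normalized counts in the Mul1(+/+) libraries and 68002, 111927 and 34664 in the Mul1(-/-) libraries. It rose by a log2 fold change of 2.86 (adjusted p = 0.00591, limma) and showed the same order of libraries as Rps12. Rps25, with a log2 fold change of 2.54, and Rps24, with one of 2.28, rose as well. Rps24 and Rps19, the latter with a log2 fold change of 1.84, are known as genes mutated in Diamond-Blackfan anemia.

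Rps27a encodes a fusion of ubiquitin with a small subunit protein and is one source of free ubiquitin in the cell. It had 4899, 7237 and 5160 normalized counts in the Mul1(+/+) libraries and 16282, 22930 and 17263 in the Mul1(-/-) libraries. The genotypes were well apart, and Rps27a rose by a log2 fold change of 1.71 (SE 0.39, adjusted p = 0.00833 in limma).

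Rpsa, also known as the laminin receptor, binds the small subunit late in its maturation. Normalized counts of Rpsa were 12362, 17364 and 12902 in Mul1(+/+) and 32301, 36887 and 32075 in Mul1(-/-). Its groups did not overlap, but its log2 fold change of 1.26 was the smallest of the small subunit names and did not pass the threshold (adjusted p = 0.0149, limma).

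The paralogs and retrocopies followed the same direction, and 5 of the 6 passed the threshold. Rpl22l1, a paralog of the RNA-binding protein Rpl22, had the largest log2 fold change of the 64 genes. It had 789, 1005 and 550 normalized counts in the Mul1(+/+) libraries and 6548, 12937.5 and 3366 in the Mul1(-/-) libraries, which gave a log2 fold change of 3.12 (SE 0.53, adjusted p = 0.00589 in limma). Rpl22 itself, in the standard list, had 4211, 5109 and 3992 normalized counts in Mul1(+/+) and 10354, 15635 and 8796 in Mul1(-/-). The log2 fold change of Rpl22 was 1.35 and did not pass (adjusted p = 0.0146, limma). The difference between the fold changes of Rpl22l1 and Rpl22 was not tested.

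Rps27l, the paralog of Rps27 and a known p53 target, had 4630, 8273 and 5511 normalized counts in the Mul1(+/+) libraries and 29868, 64291 and 15839 in the Mul1(-/-) libraries. It rose by a log2 fold change of 2.39 (adjusted p = 0.00816, limma), and Rps27 rose by one of 1.96 (adjusted p = 0.00701, limma). Rpl37rt, Rpl6l and Rpl32l are annotated as processed pseudogenes in GENCODE M21 and had few reads. Rpl37rt had 32.0, 30.1 and 30.2 normalized counts in Mul1(+/+) and 172, 162 and 86.9 in Mul1(-/-), with a log2 fold change of 2.09 (adjusted p = 0.00692, limma).

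Rpl6l had 14.3, 19.5 and 15.5 normalized counts in the Mul1(+/+) libraries and 57.0, 90.6 and 37.8 in the Mul1(-/-) libraries, with a log2 fold change of 1.77 (adjusted p = 0.00965, limma). Rpl32l had 0.84, 7.08 and 3.27 in Mul1(+/+) and 24.8, 36.7 and 21.1 in Mul1(-/-), where the lowest value is 1 read, and its log2 fold change on the scale with 1 added was 2.80 (adjusted p = 0.00692, limma). Rps27rt, with 34.6, 41.6 and 53.1 in Mul1(+/+) and 108, 119 and 133 in Mul1(-/-), had a log2 fold change of 1.47 and did not pass (adjusted p = 0.0110, limma). Reads of such copies may be shared with the parent gene, and how the authors' counting treated them is not given in the sources used here.

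Over the standard list, the subunits were close to each other. The median log2 fold change was 1.81 for the 33 large subunit genes and 1.94 for the 25 small subunit genes, of which 21 and 21 passed the threshold. With all 64 names the median of the large minus that of the small subunit was 0.01, and with the standard list it was -0.13. In the Mul1(-/-) libraries the median difference from the Mul1(+/+) mean was 1.90, 2.15 and 1.56 for the large and 1.68, 2.33 and 1.66 for the small subunit, so the large subunit was ahead in replicate 1 and behind in replicates 2 and 3. The ratio of the summed normalized counts, which no scaling of a library can change, gave a narrower spread. It was 1.31, 1.27 and 1.29 (large over small) in the Mul1(+/+) libraries and 1.20, 1.17 and 1.20 in the Mul1(-/-) libraries. The means were 1.29 ± 0.02 (SD, n = 3) and 1.19 ± 0.01 (SD, n = 3), and the genotypes did not overlap. With 3 libraries per genotype the smallest p of an exact two-sided permutation test is 0.1, and no test was made of this ratio of selected genes.

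**Figure D3:**
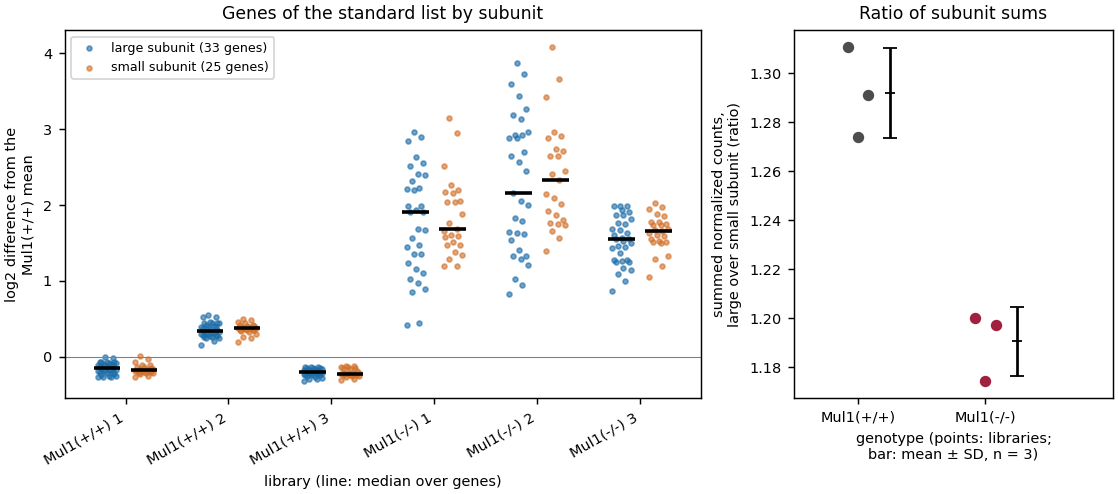
Left, log2 difference of each standard-list gene from the Mul1(+/+) mean in each library (points, 33 large and 25 small subunit genes; lines are medians). Right, summed normalized counts of the large over those of the small subunit per library, with mean ± SD (n = 3): the Mul1(+/+) libraries lie between 1.27 and 1.31 and the Mul1(-/-) libraries between 1.17 and 1.20.

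The members differed in which Mul1(-/-) library was highest. The order replicate 2 above replicate 1 above replicate 3 held for 43 of the 64 genes (67.2%, against 23.0% of all genes of the table). It held for 10 of the 10 genes with the largest log2 fold change and for 4 of the 10 with the smallest. The 7 genes with replicate 3 highest were Rpl41, Rps14, Rps9, Rps27rt, Rpl10a, Rpl5 and Rpl9, named because of this order. Rpl10a had 10139, 11482.5 and 19005 normalized counts in the Mul1(-/-) libraries, and Rps14 had 31279, 42773 and 46833. Their median log2 fold change was 1.47, and 2 of the 7 passed the threshold.

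Coding length was related to the fold change among the ribosomal protein genes. The 61 with a protein-coding annotation had coding lengths of 75 to 891 nucleotides, with a median of 435. Across these 61 genes, which share the 6 libraries and are not independent replicates, Pearson's r between log2 fold change and coding length was -0.38 and Spearman's rho was -0.38. Over the 2780 other protein-coding genes of the table r was -0.23 and rho -0.34. Between log2 fold change and the Mul1(+/+) mean normalized count r was -0.32 and rho -0.28 over all 64 genes. With that mean taken per coding kilobase, over the 61 genes, r was -0.05 and rho 0.09.

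Other short genes of the table were also mostly higher in Mul1(-/-). Of 831 other protein-coding genes with coding lengths in the range of the ribosomal protein genes, 77.3% were higher and 19.3% passed the threshold, with a median log2 fold change of 1.32. Among the 232 in the middle range of 351 to 552 nucleotides, 85.3% were higher, 20.7% passed and the median was 1.34. Replicate 2 was the highest of its group for 75% of these 232 genes in Mul1(+/+) and for 68.5% in Mul1(-/-). Of the 1949 other protein-coding genes with a longer coding sequence, 33.9% were higher and the median log2 fold change was -1.20. Ribosomal protein genes thus had a larger median than other genes of their length in a table where length and direction move together. Their median is over genes that were all higher, whereas those of the other genes mix both directions. No median was taken over only the higher genes of this length. RNA integrity and library preparation are not given in the labels, and the part of length in the result was not tested.

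**Figure D4:**
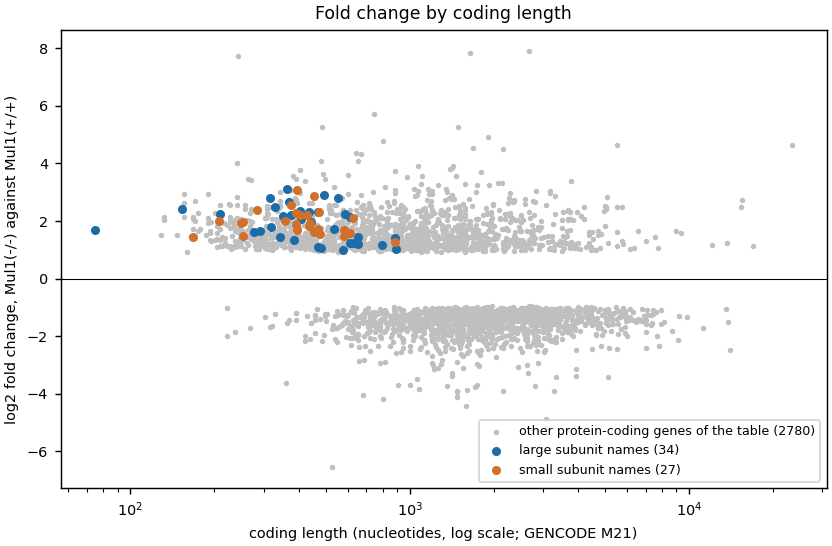
Log2 fold change, Mul1(-/-) against Mul1(+/+) (y axis), by coding length in nucleotides (x axis, log scale) for 34 large subunit names, 27 small subunit names and 2780 other protein-coding genes of the table. The empty band around 0 comes from the selection of the table, and the grey points below 0 lie mostly at longer coding lengths than the ribosomal protein genes.

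Rows named as pseudogenes of ribosomal protein genes, which the naming rule leaves out, moved with the genes. All 30 were higher in Mul1(-/-) and 21 passed the threshold, with a median log2 fold change of 2.13. For 28 of them the namesake gene is in the table, and these rows were at 0.0403% to 5.76% of its mean normalized count. The log2 fold changes of row and gene had r = 0.63 and rho = 0.60 over these 28 pairs with 23 genes, and 21 pairs were within 0.5 of each other on the log2 scale. Rps18-ps3 differed most, with a log2 fold change of 1.88 against 2.86 for Rps18. Rpl10a-ps1 had 117, 82.0 and 163 normalized counts in the Mul1(-/-) libraries, with replicate 3 highest as in Rpl10a. Reads of near-identical copies cannot be told apart here.

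**Figure D5:**
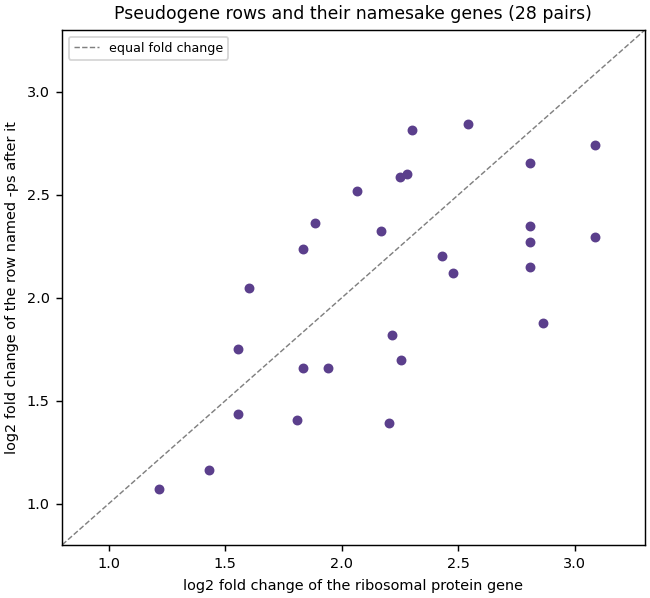
Log2 fold change, Mul1(-/-) against Mul1(+/+), of 28 rows named -ps (y axis) by that of the ribosomal protein gene they are named after (x axis); the dashed line marks equal fold changes. All points are above 0.8 on both axes, and 18 lie below the line.

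Position and snoRNA content were also counted. The 64 genes lie on 19 chromosomes, with at most 10 on one of them, chromosome 7. In GENCODE M21, 20 of the genes hold 40 snoRNA genes within their bounds. Their median log2 fold change was 1.95, with 13 of 20 past the threshold, against 1.91 and 34 of 44 for the others.

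Other genes of the translation machinery were counted from lists chosen by function, as far as they were in this selected table. Of all genes of the table, 56.8% were higher. The ribosomal protein genes Fau and Rack1, outside the naming rule, had log2 fold changes of 1.5 and 1.12 and did not pass (adjusted p = 0.0109 and 0.0240, limma). Of 94 ribosome biogenesis genes listed, 10 were in the table, of which 9 were higher and 0 passed. In limma 10 of 10 had an unadjusted p under 0.05, as had 3416 of all 3542 genes of this selected table. The 18 mitochondrial ribosomal protein genes (Mrpl and Mrps names) were all higher, 2 passed, and the median log2 fold change was 1.33. Of a list of 10 other TOP mRNAs, 5 were in the table. All 5 were higher, and 3 passed: Tpt1 (1.75), Cox7c (1.94) and Pfdn5 (2.34). Translation factor genes were counted in lists of their own, whether or not their transcripts are TOP mRNAs. In those lists 5 of 7 initiation genes and 3 of 5 elongation and termination genes in the table were lower. Among these were Eif4b (-1.52, not past the threshold) and Eef2 (-1.81, past it). The 5 higher genes thus do not stand for all TOP mRNAs. Of 21 snoRNA host genes listed, many of which are also TOP transcripts, 17 were in the table. All 17 were higher, with 8 past the threshold and a median log2 fold change of 2.04.

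Factors that act on the ribosome were found in both directions. Of 39 initiation factor genes listed, 7 were in the table, of which 2 were higher, 5 were lower and 0 passed. All 7 had an unadjusted p under 0.05 in limma, near the share of the whole table. Of 12 elongation and termination genes listed, 5 were in the table, of which 2 were higher and 3 lower. Eef2, the elongation factor that moves the ribosome along mRNA, fell. Eef2 had 93428, 62754 and 77259 normalized counts in the Mul1(+/+) libraries and 23168, 14667 and 30727 in the Mul1(-/-) libraries, and its log2 fold change was -1.81 (adjusted p = 0.00873, limma). Eef1b2, a subunit of the factor that reloads eEF1A, had a log2 fold change of 0.97 and its highest value, 16556, in Mul1(-/-) replicate 3.

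Of 36 genes listed for RNA polymerases I and III and their factors, 4 were in the table, of which 2 were higher and 2 lower. Taf1d, which serves polymerase I, rose by a log2 fold change of 2.42 (adjusted p = 0.00658, limma). Of 25 genes listed for mTORC1 and Myc signalling, 5 were in the table. Among these 5, Myc, a transcription factor known to raise ribosome production, was the only one higher. It had 74.2, 72.6 and 49.8 normalized counts in the Mul1(+/+) libraries and 1105, 291 and 446 in the Mul1(-/-) libraries, with a log2 fold change of 3.00 (adjusted p = 0.00591, limma). Myc was highest in Mul1(-/-) replicate 1, whereas the ribosomal protein genes were mostly highest in replicate 2. Eif4ebp2, a translational repressor and mTORC1 substrate, fell by a log2 fold change of -3.64 (adjusted p = 0.00692, limma), and Larp1, which binds TOP mRNAs, had one of -1.16 and did not pass (adjusted p = 0.0376, limma).

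Markers of other cells and transcripts of the mitochondrial genome were counted as well. Of 5 bile duct markers, 4 were in the table and higher, with Epcam (2.19) and Spp1 (1.66) past the threshold. Their summed normalized counts ran from 1292 to 1891 in Mul1(+/+) and from 4878 to 5100 in Mul1(-/-). Spp1 made up most of this sum, with 3336, 4304 and 4613 in Mul1(-/-), while Krt19, with 1151, 176 and 147, Krt7 and Epcam were highest in Mul1(-/-) replicate 1. Of 5 endothelial markers, Pecam1 and Clec4g were in the table and lower, neither past the threshold, summing to 3352 to 3910 in Mul1(+/+) and 1184 to 2140 in Mul1(-/-). Ptprc alone of 5 lymphocyte markers was in the table, at 273 to 503 in Mul1(+/+) and 687.7 to 1444 in Mul1(-/-), and Alas2 alone of 5 erythroid markers, at 5052 to 7563 and 803 to 4287, and neither passed. None of these in the table was at 0, and none of the 5 macrophage and 5 stellate markers looked for was in the selected table. The 27 mitochondrial genome rows were all higher, but 1 passed the threshold (3.70%, against 16.7% of all genes). The genotypes overlapped in 15 of them, against 343 of all 3542 genes. Their median differences from the Mul1(+/+) mean were 2.89, 1.71 and 0.31 in the Mul1(-/-) libraries. Mul1(-/-) replicate 1 was highest of its group in 27 of 27, against 35.9% of all genes. The part of these genes in the result for the ribosomal protein genes was not tested.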

How the data were processed

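Liver mRNA of 3 Mul1(+/+) and 3 Mul1(-/-) mice on HFD was measured. The authors deposited a table of normalized counts, which are counts scaled by a library factor and written with separator commas. The authors' deposited columns of log2 fold changes and of raw and adjusted p-values, from the Wald test of DESeq2 per the labels, were read only to see how the table had been selected. Aligner, counter and build are not given in the sources used here.

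Values under 10000 were whole multiples of 1 read in 100% of cases (tolerance 0.1 read plus 0.02 for rounding). A pseudocount of 1 was added, no gene was filtered out, and on the log2 scale limma 3.58.1 (R 4.3.3) was fitted to all 3542 genes with genotype alone, after it had been tested on simulated data. Python 3.11.15, pandas 2.3.3, scipy 1.17.1 and matplotlib 3.10.9 served for the rest. A fold change on this scale understates genes with few reads. Titles number the libraries, and no label says more about the animals, so p-values measure the spread between these libraries. Coordinates, gene types and coding lengths are from GENCODE M21 (GRCm38), and start sequences from RefSeq (GRCm38.p6).

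Values by library are given for the stalk genes, Rpsa, Rps6, Rps27a, Rpl5 and Rpl11 where present, the 5 largest and 5 smallest log2 fold changes, the 3 highest levels per coding kilobase, paralogs, genes whose groups overlap, and Mul1. The other genes named with values were chosen after their values were seen or are members of the lists. 1 gene counted in all totals is not reported by name here or drawn in the figures that label genes. The members and lists were chosen with earlier results of these data known. Alternatives were an adjusted p threshold of 0.05, other pseudocounts, a filter, rescaled libraries, limma-trend, limma-voom, a replicate block, the standard list and each library left out.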

Additional observations from a re-analysis of the deposited data

How the results depend on the processing

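All 64 genes stayed higher in Mul1(-/-) in each of the 17 alternatives run, 58 of 58 where only the standard list was kept. The number past the threshold, 47, was 22 with libraries rescaled by the median ratio and 30 with rescaling by the table total. With the replicate number as a block it was 0, as was the number of genes called over the whole table in either direction. In that fit 62 ribosomal protein genes had an adjusted p under 0.05. The share of all genes under 0.05 was not counted. Libraries with the same number had correlations of 0.02, 0.35 and 0.05 in their deviations from the group means, so the numbers were not taken as a pairing, and only in number 2 did both libraries correlate best with each other. Leaving out single libraries gave counts from 0 to 57. An adjusted p under 0.05 in place of 0.01 gave 63, in a table that the authors had cut at an adjusted p of 0.05. In the main fit 3416 of all 3542 genes had an unadjusted p under 0.05 in limma. Other settings gave 41 (pseudocount 0.5, where 13.2% of the table was called higher) to 57 (limma-trend, 27.2% of the table). Limma-voom on recovered reads, which was chosen after seeing the data, gave 54 (16.8% of the table). The median log2 fold change was 1.28 with the median ratio, and 1.70 to 2.09 with a library left out. The large minus small subunit difference, 0.01, ranged from -0.072 to 0.18 with a library left out, and changed sign to -0.13 with a pseudocount of 10 and with the standard list. The cause of these changes was not tested. Of the calls for 22 named genes, 229 kept their side, 86 no longer passed, 15 newly passed and 0 changed direction. The planned edgeR and DESeq2 fits on recovered reads were not run, and limma-voom on those reads took their place. Genes outside the table set a limit to any statement on all ribosomal proteins.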
